A study of Mus musculus with 6 samples.

Results

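Cadherins and protocadherins are the calcium-dependent adhesion proteins of the cell surface. The family was taken here as the protein-coding mouse genes named Cdh or Pcdh with a number, the clustered *Pcdha*, *Pcdhb* and *Pcdhg* genes, *Celsr1*, *Celsr2* and *Celsr3*, and *Fat1*, *Fat3* and *Fat4*, found by matching each gene identifier in the count tables to GENCODE M21. The rule itself leaves out 2 protocadherin genes by name. It found 63 rows among the 41388 genes counted. These were 5 type I cadherins, 13 type II cadherins, 5 other cadherins, 10 non-clustered protocadherins, 22 *Pcdhb* genes, 1 row each for the *Pcdha* and *Pcdhg* clusters, 3 *Celsr* genes and 3 *Fat* genes.

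Transcripts were measured by RNA-seq in chondrocytes from the femoral heads of 21-day-old male mice, grown for 2 days in serum-containing medium as a monolayer. The 3 *Postn*-/- samples came from mice homozygous for the *Postn* tm1Jmol allele and the 3 *wt* samples from wild-type mice of the same B6129SF2/J background. The allele is constitutive, so every cell of the animal carries it, and both groups shared the mixed background, the culture and the library kit. The comparison of the groups asks which transcripts differ in chondrocytes that lack periostin, a secreted matrix protein.

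Classical cadherins of type I and type II bind a like cadherin on the neighbouring cell and are tied to actin inside the cell through beta-, alpha- and p120-catenin. Protocadherins lack that catenin link. The clustered ones are made from arrays of alternative first exons, which in the alpha and gamma clusters are spliced to shared constant exons, and are best known for giving neurons a surface identity. The *Fat* and *Celsr* proteins are very large cadherins of planar cell polarity, in which Fat4 binds Dchs1 on the next cell. In cartilage, N-cadherin (*Cdh2*) is known from the condensation of mesenchyme that comes before the chondrocyte.

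The libraries held between 20587640 and 26572260 counted reads, and 3 reads, the limit that a count of 0 allows, came to between 0.113 and 0.146 CPM, the counts scaled to the library total. These limits cover counting error only. The samples carried the label's cell type: the 10 chondrocyte marker genes summed to between 29770 and 46720 CPM in every sample. *Postn* itself, the targeted gene, was at 4.66, 4.27 and 5.67 CPM in *Postn*-/- cells and at 10.1, 10.3 and 6.90 CPM in *wt* samples, a log2 fold change of -0.91. Its reads were lower in all 3 *Postn*-/- samples but not gone, with 105 to 119 reads per *Postn*-/- library. Which exons they came from was not tested. The CPM limit for 3 reads and the 1 CPM filter used plain library totals, while the levels given are TMM-normalized CPM. A fold change is *Postn*-/- over *wt*, and SE is its standard error.

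A row was tested when it exceeded 1 CPM in at least 2 samples, which 44 of the 63 rows did. Of all 63, 32 exceeded 1 CPM in all 6 samples, 4 in only 1 sample and 15 in none. Most of the family was therefore present at low levels. Reads were concentrated in a few rows: the gamma cluster row took 36.2% to 49.4% of the family's reads in a sample, *Fat1* 11.2% to 23.9%, *Pcdh9* 4.51% to 7.18% and *Pcdh11x* 4.24% to 6.14%. Together these 4 rows took 67.6% to 76.5%. The whole family summed to 501, 562 and 510 CPM in *Postn*-/- and to 507, 457 and 473 CPM in *wt* samples, so that the groups overlapped.

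Levels of different genes were compared as normalized CPM per kilobase of exon that no other gene overlaps. On that scale, averaged over the 6 samples, the gamma cluster row stood first at 8.40 ± 1.23 (SD over 6 samples), *Pcdh9* second at 8.32 ± 1.52 and *Fat1* next at 5.93. *Pcdhb22* at 3.23, *Pcdh11x* at 2.92, *Pcdhb17* at 2.86 and *Cdh19* at 2.29 followed. *Pcdhb20* at 1.76, *Pcdhb14* at 1.75, *Pcdhb7* at 1.42, *Cdh11* at 1.20 and *Pcdhb21* at 1.12 were the other rows above 1, and *Cdh2* came next at 0.81. The highest rows of the family by RNA per kilobase were thus protocadherins and *Fat1*, and protein was not measured. The gamma cluster row pools exons of several genes, so that its rank against single genes is not like for like. The highest classical cadherin was *Cdh19*, a type II cadherin known from the neural crest lineage. In this order only *Pcdh19*, at 0.118, lay above its next lower neighbour, the alpha cluster row at 0.0572, with no overlap between their samples. The samples of every other pair of neighbours overlapped. Within a sample, 5 of the 43 neighbouring pairs kept their order in all 6 samples: *Fat1* above *Pcdhb22*, *Pcdhb17* above *Cdh19*, *Cdh19* above *Pcdhb20*, *Pcdhb14* above *Pcdhb7*, and *Pcdh19* above the alpha row. The order of the other pairs changed between samples.

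**Figure D1:**
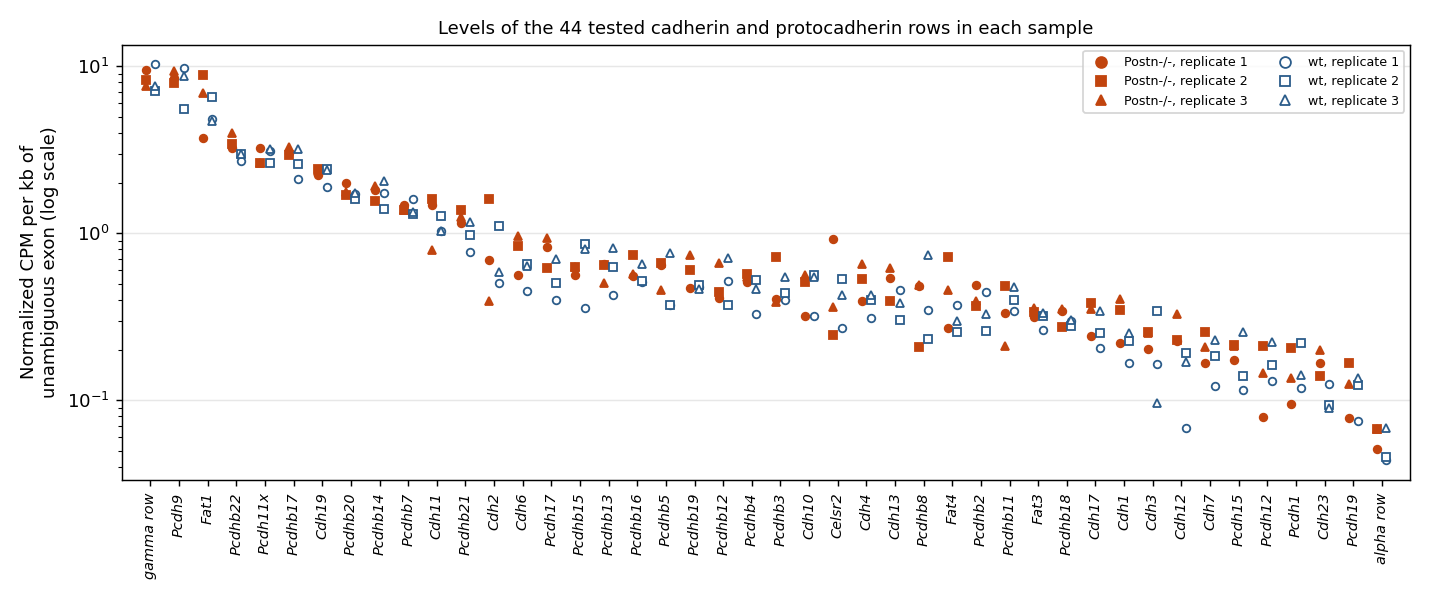
Normalized CPM per kilobase of unambiguous exon (log scale) of the 44 tested rows, ordered by their mean. Each point is 1 sample, filled for *Postn*-/- and open for *wt*, with the marker shape giving the replicate number. The gamma cluster row, *Pcdh9* and *Fat1* stand above the rest, and the samples of both groups overlap at every row but those of *Cdh23*, *Cdh12* and *Pcdhb22*.

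Across the 44 tested rows the groups differed little. Only 1 row, *Cdh23*, reached an unadjusted p of 0.05, and it was higher in *Postn*-/- samples. Over all 14533 genes tested, 6.3% had such a p, with 3.95% higher and 2.35% lower. After Benjamini-Hochberg adjustment in edgeR's quasi-likelihood test no row of the family passed 0.05, the lowest adjusted p being 0.717, where 0.0138% of all tested genes did. DESeq2 also called 0 rows after adjustment and 2 before it, *Cdh23* and *Pcdh17*. The share of the family at p of at most 0.05, 2.27%, was thus not above the background. In bulk RNA fewer cells of a type and less RNA per cell cannot be told apart, which holds for every value below.

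*Cdh23* (ENSMUSG00000012819, chr10:60302748-60696490 on GRCm38) encodes a long cadherin that pairs with protocadherin-15 in the tip links of hair cells. It was at 2.81, 2.36 and 3.38 CPM in *Postn*-/- cells and at 2.12, 1.58 and 1.53 CPM in *wt* samples. All 3 *Postn*-/- samples lay above all 3 *wt* samples, on 58 to 71 against 32 to 55 reads. The group means were 2.85 ± 0.51 and 1.74 ± 0.32 CPM (SD, n = 3 each). This gave a log2 fold change of 0.70 (SE 0.25, unadjusted p 0.0255, adjusted p 0.717 by edgeR's quasi-likelihood test). The unadjusted p was 0.0988 without *Postn*-/- replicate 3, 0.0762 without *wt* replicate 3, 0.0719 without *wt* replicate 2 and 0.0515 without *Postn*-/- replicate 1. Its partner in the tip link, *Pcdh15*, was at 3.21, 3.94 and 3.91 CPM against 2.12, 2.58 and 4.74 CPM, with overlapping groups and a log2 fold change of 0.24 (SE 0.32).

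The sequences around the annotated start of *Cdh23*, of *Pcdh9* and of *Celsr2* are shown because they are, in turn, the row with the lowest p, the single gene with the highest level per kilobase and the row whose high mean in *Postn*-/- rests on 1 sample. They are RefSeq windows on GRCm38.p6 from 250 bases before the start to 50 bases after it, written 5′ to 3′ along the gene. Of the 63 rows, 25 had a window in the RefSeq table used, 13 of them tested. Capitals mark CAGGTG on either strand (CACCTG on the other), the E-box bound by Snail and Zeb repressors.
Cdh23, chr10:60696441-60696740, minus strand: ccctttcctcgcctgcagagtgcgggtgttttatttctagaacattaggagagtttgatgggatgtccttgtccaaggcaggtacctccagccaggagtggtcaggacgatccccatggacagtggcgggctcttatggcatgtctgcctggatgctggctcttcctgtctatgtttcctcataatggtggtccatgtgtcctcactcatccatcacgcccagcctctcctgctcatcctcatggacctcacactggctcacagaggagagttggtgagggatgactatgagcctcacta
Pcdh9, chr14:93890630-93890929, minus strand: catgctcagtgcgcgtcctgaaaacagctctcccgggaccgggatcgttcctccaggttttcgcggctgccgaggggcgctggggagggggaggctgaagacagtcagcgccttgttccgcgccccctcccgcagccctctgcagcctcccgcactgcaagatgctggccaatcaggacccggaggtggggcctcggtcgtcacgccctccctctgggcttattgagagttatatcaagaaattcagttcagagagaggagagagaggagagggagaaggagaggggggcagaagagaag
Celsr2, chr3:108415530-108415829, minus strand: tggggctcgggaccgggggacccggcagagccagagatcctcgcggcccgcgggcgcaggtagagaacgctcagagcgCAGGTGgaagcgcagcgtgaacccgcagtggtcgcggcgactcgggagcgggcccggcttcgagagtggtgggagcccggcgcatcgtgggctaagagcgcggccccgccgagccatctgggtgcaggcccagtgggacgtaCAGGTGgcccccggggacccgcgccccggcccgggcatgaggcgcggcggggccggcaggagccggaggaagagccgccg

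The *Celsr2* window held the E-box 2 times and the windows of *Cdh23* and *Pcdh9* did not hold these letters. At least 1 E-box was in the windows of 5 of the 25 family genes, or 20%, and in 20% of the 27025 genes of the table. CG dinucleotides numbered 5 in the *Cdh23* window, 18 in that of *Pcdh9* and 40 in that of *Celsr2*, against a median of 13 over the 25 family genes and of 7 over the table. For 4 of the 25 (*Fat1*, *Cdh12*, *Cdh18* and *Pcdh15*) the RefSeq start lies more than 1500 bases from the GENCODE M21 gene start, so that these windows belong to another start. Of the other 21, 3 held an E-box (14.3%). A match is a stretch of letters and no measure of binding.

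Non-overlap of the groups gave a second view of the same fit. All 3 *Postn*-/- samples lay above all 3 *wt* samples for 3 of the 44 tested rows, *Cdh23*, *Cdh12* and *Pcdhb22*, or 6.82%, where 7.03% of all tested genes did. No row had all 3 *Postn*-/- samples below all *wt* samples, where 6.57% of all tested genes did. *Cdh12*, a type II cadherin of the nervous system, was at 1.29, 1.30 and 1.86 CPM against 0.385, 1.09 and 0.958 CPM, on 10 to 39 reads per library. The log2 fold change of *Cdh12* was 0.88 (SE 0.40, unadjusted p 0.0616 in edgeR's quasi-likelihood test), the largest of the tested rows. The lowest sample was *wt* replicate 1. *Cdh12* exceeded 1 CPM in all 3 *Postn*-/- samples but among *wt* samples only in replicate 2. It thus passed the filter through the group where it was high. *Pcdhb22* was at 10.01, 10.5 and 12.2 CPM against 8.30, 9.18 and 9.15 CPM, a narrow separation with a log2 fold change of 0.30 (SE 0.15, unadjusted p 0.091). *Pcdh17*, a non-clustered protocadherin, was at 7.84, 5.90 and 8.96 CPM against 3.81, 4.80 and 6.71 CPM. Its groups overlapped through *Postn*-/- replicate 2 and *wt* replicate 3, and its log2 fold change was 0.57 (SE 0.26, unadjusted p 0.0635).

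**Figure D2:**
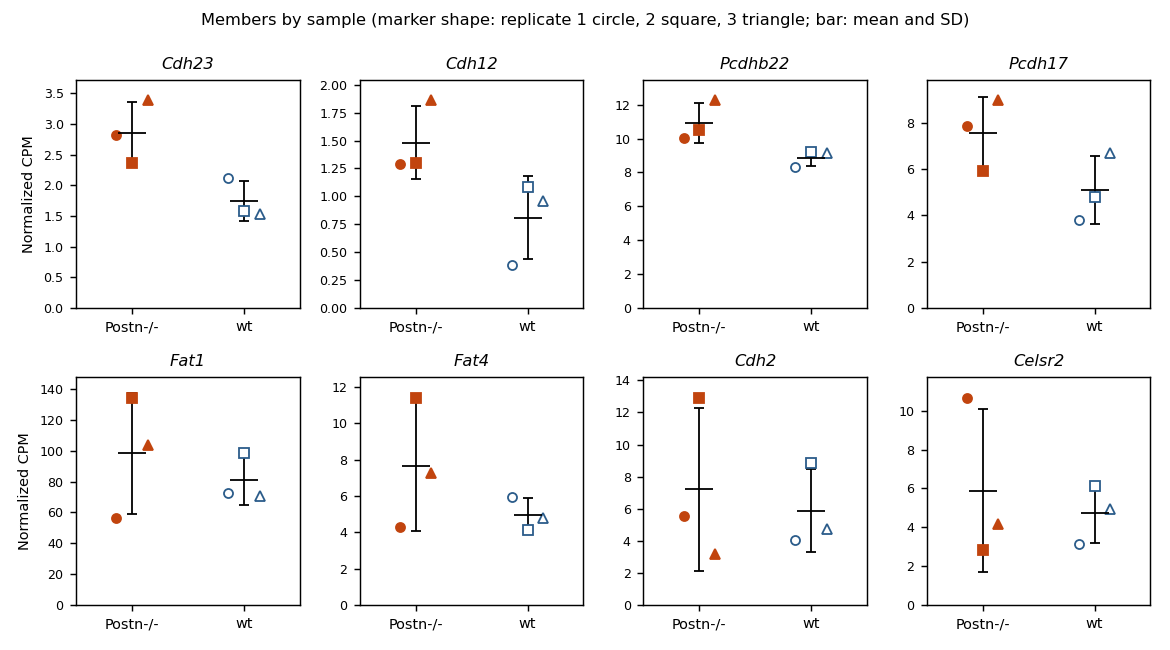
Normalized CPM of 8 genes in each sample, with the mean and SD of each group as bars and each axis starting at 0. *Cdh23*, *Cdh12* and *Pcdhb22* have all 3 *Postn*-/- samples above the *wt* samples, while the highest values of *Fat1*, *Fat4* and *Cdh2* are *Postn*-/- replicate 2 and that of *Celsr2* is *Postn*-/- replicate 1.

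Type I cadherins, which form the classical adherens junction, were low. *Cdh2* (N-cadherin) had the highest mean of them. It was at 5.54, 12.9 and 3.19 CPM in *Postn*-/- and 4.04, 8.87 and 4.74 CPM in *wt* samples. Replicate 2 was its highest sample in both groups. Its lowest sample of all was *Postn*-/- replicate 3, where *Cdh4* stood above it. The log2 fold change of *Cdh2* was 0.30 with an SE of 0.51, and it became -0.42 without *Postn*-/- replicate 2. The 5 osteoblast marker genes summed to 1268, 1860 and 982 CPM in *Postn*-/- and 758, 3394 and 1475 CPM in *wt* samples. In that sum, and in *Alpl*, *Ibsp* and *Sp7* singly, replicate 2 was again the highest of both groups. *Bglap* went otherwise, at 102, 95.3 and 151 CPM in *Postn*-/- and 149, 102 and 94.0 CPM in *wt* samples. So did *Dmp1*, at 0.442, 1.18 and 1.48 CPM against 0.923, 0.226 and 0.623 CPM. None of the 5 osteoblast markers was at 0 in any sample, and their part in the *Cdh2* values was not tested.

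*Cdh4* (R-cadherin) was at 2.85, 3.86 and 4.77 CPM against 2.27, 2.90 and 3.12 CPM, with 1 *Postn*-/- sample within the range of the *wt* samples and a log2 fold change of 0.47 (SE 0.26). *Cdh1* (E-cadherin) was at 1.00, 1.59 and 1.86 CPM against 0.769, 1.04 and 1.15 CPM, on 20 to 39 reads. Its groups overlapped only through *Postn*-/- replicate 1, and its log2 fold change was 0.59 (SE 0.33). With that replicate left out, edgeR gave an unadjusted p of 0.0362 for *Cdh1* and 0.0429 for *Cdh4*, with adjusted values of 0.774 for both. With *Postn*-/- replicate 3 left out the log2 fold changes were 0.39 for *Cdh1* and 0.28 for *Cdh4*, at unadjusted p-values of 0.32 and 0.357. Of 8 epithelial marker genes only 2 passed the filter, and the list summed to 3.05 to 5.57 CPM in *Postn*-/- and 3.15 to 4.12 CPM in *wt* samples. *Cdh3* (P-cadherin) lay between 0.804 and 1.02 CPM in *Postn*-/- and between 0.383 and 1.36 CPM in *wt* samples. *Cdh15* (M-cadherin), the cadherin of muscle precursors, had between 1 and 5 reads in a library and did not pass the filter.

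Of the 13 type II cadherins 6 were tested, and 5 of these had a positive log2 fold change. *Cdh19* was the highest and the most even, at 9.60, 10.3 and 10.2 CPM against 8.07, 10.4 and 10.3 CPM. Its log2 fold change was 0.07 with an SE of 0.16, so that differences much beyond the SE were not seen in either direction. *Sox10*, which marks Schwann cells, known to carry *Cdh19*, stayed at 0.161 to 0.529 CPM, below 1 CPM in all 6 samples. *S100b*, which both Schwann cells and chondrocytes express, was at 353 to 540 CPM in *Postn*-/- and 318 to 541 CPM in *wt* samples.

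*Cdh11*, the cadherin of osteoblasts and synovial fibroblasts, was at 6.19, 6.75 and 3.34 CPM against 4.34, 5.38 and 4.36 CPM. The *Postn*-/- samples held both the highest and the lowest value, and the log2 fold change was 0.21 (SE 0.28). *Cdh6* was at 1.49, 2.20 and 2.53 CPM against 1.19, 1.72 and 1.68 CPM, with only *Postn*-/- replicate 1 inside the *wt* range and a log2 fold change of 0.44 (SE 0.29). *Cdh10*, mainly known from brain, was at 3.21 to 5.62 CPM in *Postn*-/- cells and at 3.19 to 5.66 CPM in *wt* samples, and *Cdh7* at 1.69 to 2.56 and 1.23 to 2.30 CPM. *Cdh5* (VE-cadherin), the junction protein of endothelium, had 0 to 10 reads in a library and was not tested. The 0 reads were in *wt* replicate 2 and allow up to 0.134 CPM there.

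*Cdh13* (T-cadherin) is held to the membrane by a lipid anchor and has no cytoplasmic tail. It was at 5.99, 4.35 and 6.86 CPM against 5.11, 3.39 and 4.26 CPM, with a log2 fold change of 0.43 (SE 0.25). Only *Postn*-/- replicate 2 lay within the range of the *wt* samples. *Cdh17*, the intestinal and liver cadherin, was at 1.08 to 1.71 CPM against 0.923 to 1.53 CPM.

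The non-clustered protocadherins included the single gene with the highest level per kilobase. *Pcdh9* (ENSMUSG00000055421, chr14:93013410-93890679 on GRCm38) was at 31.5, 29.5 and 35.0 CPM in *Postn*-/- cells and at 36.5, 20.6 and 32.3 CPM in *wt* samples. The *wt* samples spanned the whole range, *wt* replicate 2 being the lowest, and the log2 fold change of 0.10 (SE 0.21) became -0.10 without that sample. *Pcdh11x*, an X-linked protocadherin, was at 29.4, 23.8 and 23.6 CPM against 28.1, 23.9 and 29.0 CPM, a log2 fold change of -0.08 (SE 0.14). *Pcdh1* and *Pcdh19* were near 1 CPM, at 0.804 to 1.75 and 0.804 to 1.71 CPM in *Postn*-/- samples and at 1.00 to 1.85 and 0.769 to 1.39 CPM in *wt* samples. *Pcdh12*, a protocadherin of endothelium, was at 0.442 to 1.18 against 0.731 to 1.25 CPM. It passed the filter through 1 sample of each group.

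The 19 rows below the filter had 0 to 28 reads in a library. They were *Celsr1*, *Celsr3*, *Cdh15*, the kidney cadherin *Cdh16*, *Cdh26*, 7 type II cadherins (*Cdh5*, *Cdh8*, *Cdh9*, *Cdh18*, *Cdh20*, *Cdh22* and *Cdh24*), *Pcdh7*, *Pcdh8*, *Pcdh20* and 4 *Pcdhb* genes (*Pcdhb1*, *Pcdhb6*, *Pcdhb9* and *Pcdhb10*). Among them the groups did not overlap for 3, with 2 higher and 1 lower in *Postn*-/-. Over the 10555 genes below the filter with at least 11 reads in all, the fewest of any family row there, 7.86% were apart and higher and 3.05% apart and lower. *Pcdh7* had 21, 28 and 16 reads in *Postn*-/- and 12, 9 and 5 reads in *wt* samples, or 0.844, 1.14 and 0.762 CPM against 0.461, 0.407 and 0.240 CPM. *Pcdh8* had 8 to 12 reads against 3 to 7 reads. *Cdh20* went the other way, with 7, 13 and 12 reads in *Postn*-/- and 22, 15 and 25 reads in *wt* samples. With edgeR's own filter on low counts, filterByExpr, *Pcdh7* and *Cdh20* entered the test with unadjusted p-values of 0.00799 and 0.0322 and an adjusted p of 0.735 each, by edgeR. Of the exon sequence of *Pcdh7*, 20.4% of the 50-base words also occurred in another gene.

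The *Celsr* cadherins are the core adhesion receptors of planar cell polarity. *Celsr2* was tested and was at 10.7, 2.85 and 4.15 CPM in *Postn*-/- cells and at 3.11, 6.11 and 4.93 CPM in *wt* samples. A single sample, *Postn*-/- replicate 1, held the highest value, and the lowest was also a *Postn*-/- sample. The log2 fold change was 0.33 (SE 0.49) and turned to -0.43 without *Postn*-/- replicate 1. *Celsr3*, at 0.762 to 0.964 CPM, and *Celsr1*, at 0.269 to 0.715 CPM, stayed below 1 CPM in all 6 samples.

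*Fat1* (ENSMUSG00000070047, chr8:44935447-45052257 on GRCm38), a regulator of actin at the cell edge, was the most abundant of the *Fat* genes in every sample, at 56.3, 134 and 104 CPM in *Postn*-/- cells and at 72.7, 98.8 and 70.7 CPM in *wt* samples. The *Postn*-/- samples held the lowest and the highest value, so that the SD was 39 CPM in *Postn*-/- and 16 CPM in *wt* samples. The fold change on the log2 scale was 0.28 (SE 0.29). Without *Postn*-/- replicate 1 it was 0.56 (unadjusted p 0.0217, adjusted p 0.774, edgeR), and without *Postn*-/- replicate 2 it was -0.01. *Fat4*, the receptor for Dchs1, was at 4.30, 11.4 and 7.29 CPM against 5.96, 4.12 and 4.79 CPM, again with *Postn*-/- replicate 2 highest and *Postn*-/- replicate 1 low. Its log2 fold change was 0.63 (SE 0.35, unadjusted p 0.109 in edgeR's quasi-likelihood test). By the same test it was 0.92 with an unadjusted p of 0.0132 without *Postn*-/- replicate 1. Without *Postn*-/- replicate 2 it was 0.22 with an unadjusted p of 0.496. With no sample left out, the unadjusted p of *Fat4* was 0.0468 in edgeR with no low count filter. In limma with voomWithQualityWeights and surrogate variables it was 0.00853. The adjusted p-values were 0.833 and 0.308. *Fat4* starts 15.5 Mb from *Postn* on chromosome 3, as *Celsr2* does at 54.0 Mb. *Fat3* was even, at 5.83 to 6.58 CPM against 4.84 to 6.18 CPM, with a log2 fold change of 0.14 (SE 0.18).

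The clustered protocadherins lie side by side on chromosome 18, and there the count tables do not separate all genes. The row named *Pcdha11* is a single feature of 24670 exon bases that takes in variable exons of 8 of the 13 alpha genes together with the shared constant exons. The row named *Pcdhgc4*, of 26094 exon bases, takes in variable exons of 9 of the 22 gamma genes with their constant exons. The other 5 alpha and 13 gamma genes had no variable exon in any row of the family. The values of these 2 rows are therefore partial cluster sums, over the constant exons and some of the variable exons, and not levels of 1 gene. Antisense genes overlap part of both rows, and without strand their reads cannot be told apart. The *Pcdhb* genes have no constant exons, and each of the 22 had a row of its own.

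The gamma cluster row was at 232, 204 and 186 CPM in *Postn*-/- cells and at 251, 173 and 187 CPM in *wt* samples. The *wt* samples held the highest and the lowest value, and the group means of 207 ± 23 and 204 ± 41 CPM (SD, n = 3 each) differed by far less than the spread. The log2 fold change was 0.02 with an SE of 0.16. The alpha cluster row was at 1.12, 1.46 and 1.48 CPM against 0.961, 0.995 and 1.49 CPM, on 22 to 36 reads. On the mean per kilobase over all samples, the gamma row was thus the highest and the alpha row the lowest of the tested rows. *Pcdh9* stood above the gamma row in *Postn*-/- replicate 3 and *wt* replicate 3, and *Fat1* in *Postn*-/- replicate 2. Both cluster rows were divided by the variable exons of several genes, so that their ranks against single genes are not like for like.

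Of the 22 *Pcdhb* genes 18 were tested, 12 with a positive and 6 with a negative log2 fold change, between -0.23 for *Pcdhb11* and 0.38 for *Pcdhb21*. None reached an unadjusted p of 0.05. Their reads summed to 67.8, 70.0 and 71.3 CPM in *Postn*-/- and to 56.5, 59.8 and 71.5 CPM in *wt* samples. *wt* replicate 3 stood above all *Postn*-/- samples and the other *wt* samples below them. *Pcdhb21* was at 5.38, 6.43 and 5.81 CPM against 3.61, 4.52 and 5.42 CPM, where only *Postn*-/- replicate 1 and *wt* replicate 3 crossed. *Pcdhb17* was at 9.93, 9.56 and 10.7 CPM against 6.88, 8.46 and 10.5 CPM, with a log2 fold change of 0.23 (SE 0.19). *Pcdhb7*, *Pcdhb14* and *Pcdhb20* were even, at 4.57 to 5.61, 4.80 to 7.09 and 5.47 to 6.83 CPM over the 6 samples, with log2 fold changes of -0.00061, 0.02 and 0.11.

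The later genes of the array stood higher. The 11 genes from *Pcdhb12* to *Pcdhb22* were all tested and had a median of 0.640 normalized CPM per kilobase, and 5 of them exceeded 1. The 11 from *Pcdhb1* to *Pcdhb11* had a median of 0.381, 7 of them were tested and only *Pcdhb7* exceeded 1. The median of the later genes was above that of the earlier genes in each of the 6 samples, at 0.520 to 0.858 against 0.261 to 0.464. No difference between positions was tested, since neighbouring genes share sequence. A median of 4.48% of the 50-base words of a *Pcdhb* gene occurred in another gene, up to 64.2% for *Pcdhb12*, and reads that align to more than 1 place were not counted.

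**Figure D3:**
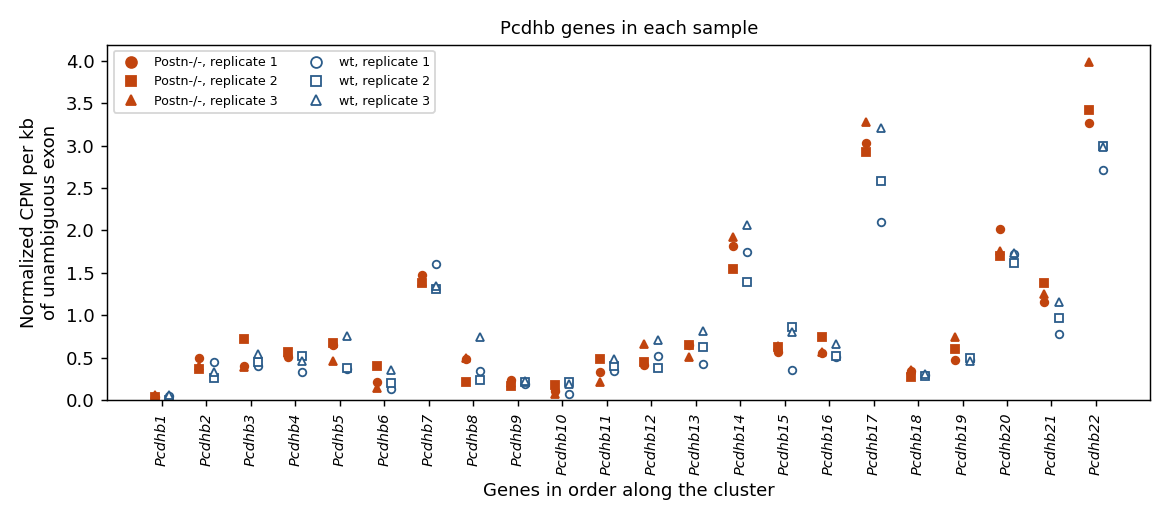
Normalized CPM per kilobase of unambiguous exon of the 22 *Pcdhb* genes in their order along the cluster, each point 1 sample, filled for *Postn*-/- and open for *wt*. *Pcdhb22* and *Pcdhb17*, both in the later part of the array, stand highest, and *Pcdhb1* lowest.

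Taken over the 44 tested rows, 34 log2 fold changes were positive and 10 negative, with a median of 0.23. Over all tested genes 50.8% were positive, with a median of 0.0042. Genes of low level leaned the same way: of the 5571 tested genes with a mean of at most 8 CPM, a limit set after the values were seen, 62.2% were positive with a median of 0.10, and of the 37 family rows among them 75.7% were positive with a median of 0.24. The family's median was 0.10 without *wt* replicate 1, with 33 rows positive, 0.15 without *Postn*-/- replicate 2, with 32 positive, and 0.08 with limma's voomWithQualityWeights, with 31 positive. *wt* replicate 1 was the lowest of the 6 samples for 21 of the 44 rows and *wt* replicate 2 for 9. The highest sample was *Postn*-/- replicate 2 for 12 rows and *Postn*-/- replicate 3 for 12. *wt* replicate 1 also had the lowest sum of chondrocyte markers, 29770 CPM.

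Markers of chondrocytes and of other cell types were read beside these values. Over all tested genes, 6.3% had an unadjusted p of at most 0.05 by edgeR, 7.03% were apart and higher and 6.57% apart and lower. Positive log2 fold changes made up 50.8% of all tested genes and 62.2% of those with a mean of at most 8 CPM. Of the 10 chondrocyte markers, all tested, 6 had a positive and 4 a negative log2 fold change. *Col2a1* was apart and higher in *Postn*-/- (log2 fold change 0.68, unadjusted p 0.0125, adjusted p 0.717, edgeR). *Cnmd* was apart and lower (log2 fold change -0.29, unadjusted p 0.132, edgeR). The 8 endothelial markers tested, of 10, all had positive log2 fold changes, and the list summed to 16.6 to 21.9 CPM in *Postn*-/- and 13.0 to 17.5 CPM in *wt* samples, with overlap. *Ptprb* reached an unadjusted p of 0.05 (log2 fold change 0.78, unadjusted p 0.0498, edgeR), and its samples and those of *Vwf* were apart and higher in *Postn*-/-. *Cldn5* was at 0 reads in *Postn*-/- replicate 3 and in *wt* replicate 3. The 4 blood cell markers tested, of 8, were all positive, and the list summed to 22.4 to 32.8 CPM against 10.8 to 23.6 CPM, with *Hba-a1* at 0 reads in 5 of the 6 samples. The 8 skeletal muscle markers summed to 17.0, 17.2 and 17.1 CPM in *Postn*-/- and 19.2, 27.8 and 23.0 CPM in *wt* samples. That gap rests on the actin gene *Acta1*: without it the sums were 14.3, 12.7 and 12.7 against 14.2, 11.9 and 14.8 CPM, which overlap, and 6 of the 8 had the higher mean in *Postn*-/-. Of the 3 tested only *Acta1* reached an unadjusted p of 0.05 (log2 fold change -1.30, unadjusted p 0.0152, edgeR), and *Myog* was at 0 reads in 5 of the 6 samples. The 8 fibroblast and synovial markers summed to 1016 to 1882 against 968 to 2300 CPM, and the osteoblast sums given above overlapped. Their part in the family's values was not tested.

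**Figure D4:**
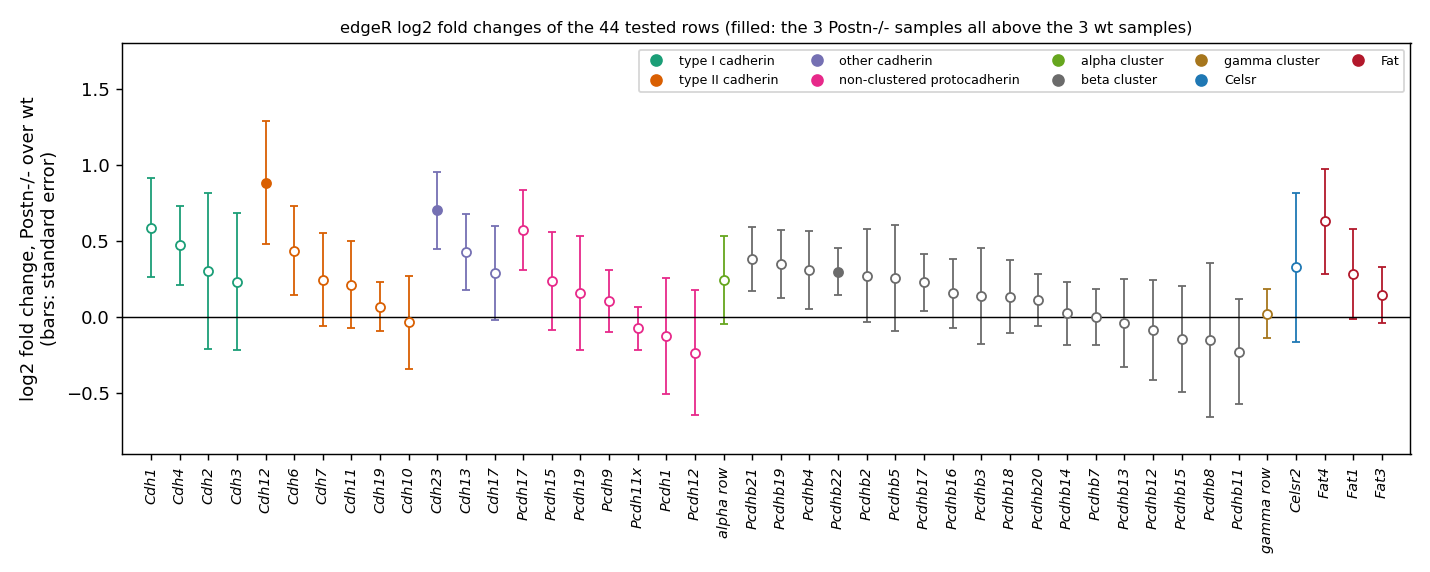
Log2 fold change (*Postn*-/- over *wt*, edgeR) of the 44 tested rows with its standard error as bars, ordered by subfamily and coloured by it. Filled points are rows whose *Postn*-/- samples all lie above the *wt* samples, which are *Cdh23*, *Cdh12* and *Pcdhb22*. Of the 44 points 34 lie above 0 and the error bars of 31 reach 0.

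Genes that act with the cadherins were read from 5 lists. Of 70 genes found 58 were tested, and 5, or 8.62%, reached an unadjusted p of 0.05, 4 higher and 1 lower, where the share over all tested genes was 6.3%. None passed after adjustment. The 13 tested catenins, plakophilins and junction linkers held none of the 5. *Ctnnb1* (beta-catenin) was at 336, 313 and 320 CPM against 220, 396 and 299 CPM, *wt* samples holding both extremes. *Ctnna1* (alpha-catenin) was at 299 to 335 CPM against 331 to 375 CPM, *Ctnnd1* (p120-catenin) at 11.2 to 13.7 against 11.3 to 13.9 CPM and *Jup* (plakoglobin) at 15.6 to 17.5 against 12.3 to 17.8 CPM. Their log2 fold changes were 0.08, -0.10, 0.02 and 0.16. Per kilobase beta-catenin at 64.6 and alpha-catenin at 90.4 normalized CPM stood far above every cadherin row.

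Planar polarity and the Fat-Dachsous pathway held 3 of the 5 among 14 tested genes. The share with an unadjusted p of at most 0.05 was 6.3% over all tested genes. *Scrib*, a polarity scaffold, was at 4.74, 4.64 and 5.004 CPM against 2.58, 3.26 and 3.35 CPM, a log2 fold change of 0.65 (SE 0.20, unadjusted p 0.0128 in edgeR's quasi-likelihood test). *Dvl2* and *Dvl3*, Dishevelled proteins that carry Frizzled signals, had opposite signs. *Dvl2* was at 11.4, 10.4 and 11.2 CPM against 8.30, 8.51 and 6.71 CPM (log2 fold change 0.49, unadjusted p 0.017), and *Dvl3* at 9.24, 9.07 and 8.82 CPM against 10.8, 12.3 and 11.3 CPM (log2 fold change -0.34, unadjusted p 0.0436). The groups of all 3 genes were apart, where 7.03% of all tested genes were apart and higher and 6.57% apart and lower. *Scrib* kept an unadjusted p under 0.05 in 16 of 16 alternative fits, *Dvl2* in 14 and *Dvl3* in 7. For *Dvl3* it was 0.0654 with a replicate block, 0.0521 with 1 CPM required in all samples, 0.0541 with upper quartile scaling and 0.0753 with no filter. With 1 sample left out it was past 0.05 for *Dvl3* in all cases but *wt* replicate 1, up to 0.116 without *wt* replicate 2, and for *Dvl2* it was 0.054 without *Postn*-/- replicate 3 and 0.0618 without *wt* replicate 3. *Dchs1*, the Fat4 ligand, was at 3.54 to 4.22 CPM against 2.61 to 4.07 CPM, and *Fjx1*, the Golgi kinase that modifies Fat and Dachsous cadherins, at 1.59 to 2.33 against 0.860 to 1.96 CPM, both with overlapping groups.

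The proteases that mature or cleave cadherins held the other 2 among 11 tested genes. Over all tested genes 6.3% had an unadjusted p of at most 0.05. *Adam9* was at 67.2, 85.9 and 65.3 CPM against 52.1, 56.5 and 46.6 CPM (log2 fold change 0.49, SE 0.14, unadjusted p 0.00755), and *Pcsk5*, a proprotein convertase, at 7.63, 7.40 and 5.72 CPM against 2.54, 4.39 and 4.89 CPM (log2 fold change 0.82, SE 0.28, unadjusted p 0.0183). For *Pcsk5* the unadjusted p was past 0.05 in 1 of 16 alternatives (0.0546 without *Postn*-/- replicate 1), and for *Adam9* in none. In both all *Postn*-/- samples were above all *wt* samples, where 7.03% of all tested genes were apart and higher. Both genes had an adjusted p of 0.717 by edgeR. Of the 11 architectural and chromatin regulators of the protocadherin clusters, such as CTCF and cohesin, 10 had a negative log2 fold change with a median of -0.18, where 49.2% of all tested genes were negative. All *Postn*-/- samples lay below all *wt* samples for 3 of the 11, the cohesin genes *Smc1a*, *Smc3* and *Stag1*, where 6.57% of all tested genes did. None of the 11 reached an unadjusted p of 0.05. The highest sample was *wt* replicate 1 for most of the 11, these 3 cohesin genes among them. The 9 tested genes of other cadherin branches, among them a desmoglein, desmocollins and calsyntenins, had 8 positive values and no unadjusted p of at most 0.05. Of all tested genes 50.8% were positive, and 62.2% of those with a mean of at most 8 CPM.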

How the data were processed

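The study prepared 6 libraries from cultured chondrocytes of 3 mice per group, with a kit for low input that does not mark strand. Per the study's methods, 50-base single-end reads were aligned with STAR 2.0.4b to an Ensembl assembly and reads with 1 unambiguous place were counted with featureCounts 1.4.5. The deposited files hold counts per gene, and CPM and RPKM that the authors computed from them; the deposited CPM and RPKM values were checked against the counts and not used further. The labels name the build mm9, but the exon coordinates in the files are those of GRCm38: 99.762% of the genes matched to GENCODE M21 overlap their annotated span. Identifiers matched for 97.468% of genes.

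After 355 ribosomal RNA genes were left out, genes above 1 CPM in at least 2 samples (14533) were scaled by TMM and tested over all 6 samples with edgeR 4.0.16 (quasi-likelihood test, Benjamini-Hochberg adjustment; R 4.3.3). Levels between genes were set per kilobase of exon that no other gene overlaps. Alternatives used DESeq2 1.42.0, limma 3.58.1 voomWithQualityWeights, sva 3.50.0 (2 surrogate variables), other filters and scalings, a replicate block, and each sample left out. The test was checked on simulated data. Replicate libraries differed by more than sampling noise. The samples are taken as separate mice, as the methods give 3 per group.

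The members and gene lists were chosen with earlier results of these data known. Genes were named when they had an unadjusted p of at most 0.05, were among the 12 highest per kilobase or the highest of their subfamily, or were on a list of well-known members and partners. *Cdh7*, *Cdh12*, *Cdh10*, *Cdh17*, *Cdh20*, *Pcdh8*, *Pcdh12*, *Pcdh15*, *Pcdh17*, *Pcdhb11*, *Smc1a*, *Smc3*, *Stag1*, the single marker genes and the other rows below the filter were named after their values were seen. A result on the Schwann and neural marker list as a whole is not reported here.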

Additional observations from a re-analysis of the deposited data

How the results depend on the processing

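In each of the 16 alternatives no cadherin or protocadherin row passed an adjusted p of 0.05. The number of rows with an unadjusted p of at most 0.05 was 1 of 44 as reported (6.3% of all tested genes). It was 2 with DESeq2 (6.01%), 3 of 53 with filterByExpr (6.29%) and 6 of 63 with no filter on low counts (5.24%). With voomWithQualityWeights and surrogate variables, the closest to the study's own model, it was 4 of 44 (12.9%). The number was 0 to 4 when 1 sample was left out. It was 0 without *Postn*-/- replicate 3 (2.95%), 4 without *Postn*-/- replicate 1 (5.99%) and 2 without *Postn*-/- replicate 2 (7.67%). Without *wt* replicate 3 it was 2 (6.06%), without *wt* replicate 1 it was 1 (5.45%) and without *wt* replicate 2 it was 1 (8.66%). The partner genes with such a p, 5 as reported, were 8 with voomWithQualityWeights (9.2% of all tested genes), 9 with surrogate variables added (12.9%), and 3 to 8 when 1 sample was left out (3 without *Postn*-/- replicate 3, where 2.95% of all tested genes had such a p, and 8 without *Postn*-/- replicate 2, where 7.67% did). The median log2 fold change of the rows was positive throughout, at 0.10 to 0.28 with 1 sample left out. A replicate block gave 3 of 44 rows, *Cdh23*, *Pcdh17* and *Cdh12*, where it gave 8.17% of all tested genes. The deviations of same-numbered samples correlated at 0.0824, 0.155 and 0.143, each sample best with its own number, which is a hint from the data only, since the numbers name different mice. Of 36 named genes 23 kept their direction. The other 13 reversed in at least 1 alternative. *Pcdhb7* was 0.014 with 1 CPM required in all samples, 0.0046 with the replicate block, 0.018 with upper quartile scaling, 0.026 with surrogate variables and 0.040 with voomWithQualityWeights. *Ctnnd1* was -0.010 with no filter and -0.0079 with surrogate variables, *Pcdhgc4* was -0.0054 with no filter, and with voomWithQualityWeights *Pcdh19* was -0.028 and *Pcdhb14* -0.032. With 1 sample left out *Celsr2* ran from -0.43 to 0.66, *Cdh2* from -0.42 to 0.72, *Pcdh1* from -0.48 to 0.17, *Cdh3* from -0.084 to 0.83, *Fat1* from -0.014 to 0.56, *Pcdh19* from -0.13 to 0.41, *Pcdh9* from -0.10 to 0.28, *Ctnnb1* from -0.10 to 0.32, *Ctnnd1* from -0.060 to 0.11, *Pcdhgc4* from -0.082 to 0.20, *Pcdhb14* from -0.11 to 0.17, *Pcdhb7* from -0.057 to 0.099 and *Cdh19* from -0.043 to 0.13. The cause of these changes was not tested. With 3 samples a group, differences within the standard errors given were not detectable, and larger ones could be missed too. *Cdh12*, at a log2 fold change of 0.88 with an SE of 0.40, had an unadjusted p of 0.0616 in edgeR's quasi-likelihood test. Most rows had few reads, but *Fat1*, on 1400 to 3307 reads in a library, also had an SE of 0.29.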
